A study of Homo sapiens with 8 samples.

Results

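The annexins are the genes described here, measured by bulk RNA sequencing in CFPAC-1, an established cell line of human pancreatic ductal adenocarcinoma. The 10 genes ANXA1, ANXA2, ANXA3, ANXA4, ANXA5, ANXA6, ANXA7, ANXA10, ANXA11 and ANXA13 were taken by their symbol from a table of 58870 genes. The family was selected on a measured value of this same comparison, the higher ANXA13 in cells with the ADRA2A transgene, so the differences of all 10 genes between the groups are given as a description, with standard errors and without p-values. All 10 passed the filter on low counts that left 14785 genes for testing. The annexin loci ANXA8, ANXA8L1, ANXA9, ANXA2P1, ANXA2P2, ANXA2P3 and ANXA2R were not in the selected set, and their values are given at the end.

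Annexins are cytosolic proteins that bind acidic phospholipids of membranes when calcium rises. They share a core of repeated domains that carries the calcium sites and differ in the N-terminal stretch, which binds partners such as S100 proteins. Through this they take part in membrane repair, endocytosis, exocytosis and the organization of actin below the membrane, and some reach the cell surface. ANXA2 at the surface of pancreatic cancer cells is known as a binding site for tissue plasminogen activator.

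The study compared CFPAC-1 cells carrying an empty vector (n = 4) with CFPAC-1 cells carrying an ADRA2A transgene (n = 4). Cells of both groups were grown untreated for 72 hours in serum-containing medium. ADRA2A encodes the alpha-2A adrenergic receptor, which couples mainly to the inhibitory G protein of adenylyl cyclase and lowers cyclic AMP. The promoter of the transgene, whether the lines were clones or pools, and whether samples of a group were separate cultures are not given in the sources used here, so p-values measure only the spread between these samples, which may be technical.

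Library totals lay between 14427040 and 17528910 estimated counts. ADRA2A had 0 counts in the 4 empty-vector libraries and 112, 142, 154 and 172 counts in the 4 ADRA2A libraries. Of 10 duct and epithelial markers 9 were tested, and their summed level was 12210 to 12790 CPM, counts scaled by effective library size, in the empty-vector libraries and 12150 to 13210 CPM in the ADRA2A libraries. That sum is mostly the keratins KRT8, KRT18 and KRT19, and of the 9 markers 4 were higher and 4 lower, from -0.43 for KRT7 to 0.79 for MUC1 on the log2 scale. By the test described below, 21.6% of all genes tested were higher and 21.1% lower. CFTR, the chloride channel of ducts, had 4 to 20 counts per library and was not tested. All 3 endocrine markers were at 0, and the 5 acinar markers summed to at most 0.271 CPM. The 5 fibroblast markers summed to 2.04 to 2.49 CPM in the empty-vector libraries and 1.11 to 1.66 CPM in the ADRA2A libraries. Of the 4 leukocyte markers CD68 and LYZ rose, and the list summed to 119 to 132 CPM in the empty-vector and 197 to 210 CPM in the ADRA2A libraries, while CD3E was at 0 and PTPRC at 0 to 4 counts. Of the 3 endothelial markers PECAM1 rose from 0.773 to 2.44 CPM, with VWF at 0 to 4 counts and CDH5 at 0 or 1. The part of these marker levels in the results below was not tested, and in bulk samples fewer cells of a type and less RNA per cell cannot be told apart.

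Across the family the ADRA2A cells had more ANXA13, ANXA4 and ANXA11, less ANXA3, ANXA10, ANXA5, ANXA6, ANXA1 and ANXA2, and a level of ANXA7 that overlapped. In edgeR's quasi-likelihood test over all genes, with p-values adjusted by Benjamini-Hochberg and a threshold of 0.05, 3 of the 10 members were higher and 6 lower, where 21.6% of all genes tested were higher, 21.1% lower and 42.7% either. Empty-vector and ADRA2A libraries were fully separate in 9 of the 10 members, where this held for 39.2% of all genes tested. A difference of 1 or more on the log2 scale, besides the adjusted p-value, was reached by 2 members, ANXA13 and ANXA4, where 4.66% of all genes reached it. The median log2 fold change (log2 change below) of the members was -0.19, beside 0.001 for all genes tested. Since this contrast chose the family, nothing is read from these counts.

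**Figure D1:**
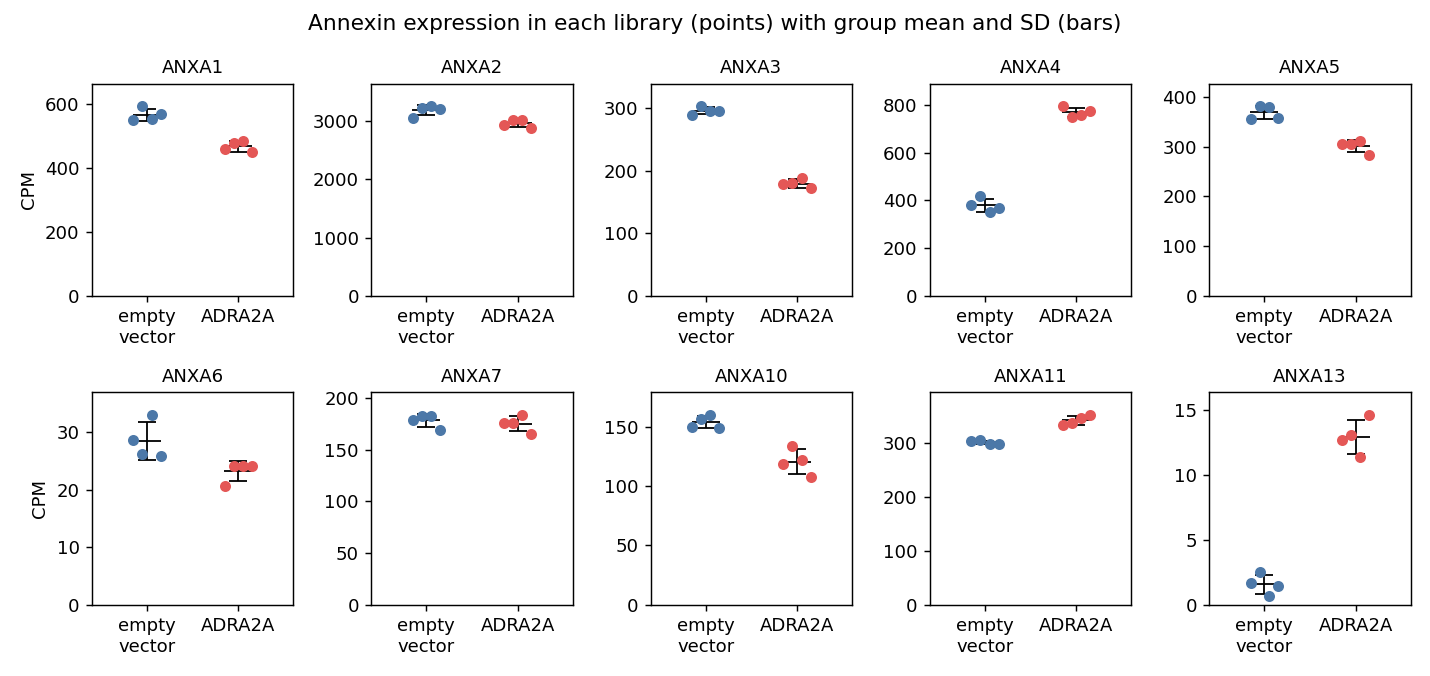
Abundance of the 10 annexins in CPM (y axes, each from 0) in the 4 empty-vector and 4 ADRA2A libraries, one point a library, with the group mean and SD as bars. ANXA4 lies between 351 and 417 CPM in the empty-vector and between 747 and 794 CPM in the ADRA2A libraries, and ANXA7 is the member whose libraries overlap.

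ANXA13, the annexin held to be nearest to the founder of the vertebrate family and known mainly from intestinal and kidney epithelium, is the gene whose rise chose the set. ANXA13 (ENSG00000104537.17) is a minus-strand gene of chromosome 8 (GRCh38, 123680794 to 123737402). It had 28, 37, 12 and 22 counts in empty-vector replicates 1 to 4 and 183, 198, 199 and 231 counts in ADRA2A replicates 1 to 4. In CPM these were 1.64, 2.51, 0.697 and 1.44 against 12.7, 13.1, 11.4 and 14.6. Every ADRA2A library lay far above every empty-vector library, and the empty-vector libraries differed among themselves more than the ADRA2A libraries did, with a coefficient of variation of 47.5% against 10.3%. The group means were 1.57 ± 0.746 and 12.9 ± 1.33 CPM (SD, n = 4 per group), or a log2 change of 3.06 ± 0.20 (SE). With that, ANXA13 went from the 9.9th to the 36th percentile of the abundance of the genes tested, and it ranked 13 of 14785 by fold change. It stayed a gene of low abundance in these cells.

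The 5 tested genes on each side of ANXA13 did not share its direction. Of these 10 neighbours 8 had a log2 change below 0, with a median of -0.15 and a range of -1.47 to 0.54, and 3 were lower by the adjusted p-value while 0 were higher. Among all genes tested 21.1% were lower and 21.6% higher. The nearest tested gene on the lower-coordinate side was FBXO32, a ubiquitin ligase subunit gene, with a log2 change of -0.69 (edgeR adjusted p = 7.78e-05). FAM91A1, the nearest on the other side, had -0.10 (edgeR adjusted p = 0.167).

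The genes whose profile over the 8 libraries was nearest to that of ANXA13 were found by the root mean square difference of log2 CPM, each gene centred on its own mean. They were C4B (0.227), USH1C (0.264), DOK5 (0.272), CDH16 (0.329) and PDZK1IP1 (0.331). The measure picks genes that differ between the groups by a like amount, so that their rise is part of the choice. USH1C encodes harmonin, a scaffold of microvillus and hair-cell links, and CDH16 a cadherin of kidney epithelium. PDZK1IP1 encodes a small membrane protein that binds PDZ domains, DOK5 an adaptor of receptor tyrosine kinases, and C4B complement component 4B, whose reads cannot be told from those of C4A with certainty. Within the empty-vector group, replicate 3 was the lowest library for ANXA13 (0.697 CPM), USH1C (2.03 CPM), DOK5 (0.232 CPM), C4B (4.88 CPM), CDH16 (0.581 CPM) and PDZK1IP1 (6.80 CPM) alike. Replicate 2 was the highest for ANXA13, DOK5, C4B and PDZK1IP1, and replicate 1 for USH1C and CDH16. The likeness was computed over all 8 libraries, these included.

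**Figure D2:**
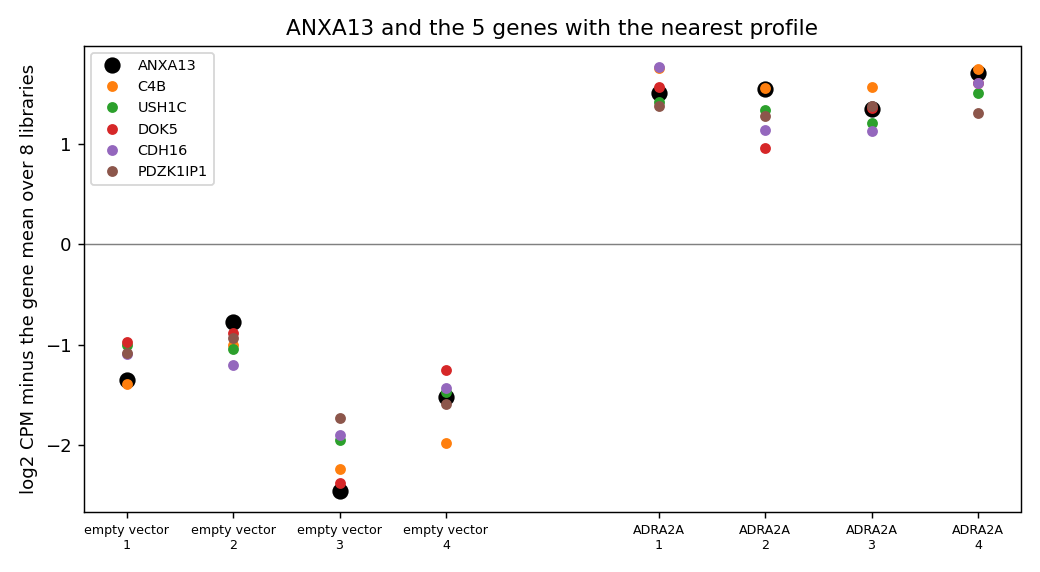
Log2 CPM minus the mean of the gene over 8 libraries (y axis) for ANXA13 (large black points) and the 5 genes with the nearest profile, in each library (x axis). All 6 genes lie lowest in empty-vector replicate 3, where ANXA13 has 0.697 CPM.

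ANXA4, an annexin of epithelial cells that associates with apical and secretory membranes, was the member with the next largest difference. ANXA4 (ENSG00000196975.16; chromosome 2, 69644425 to 69827112, plus strand) had 380, 417, 351 and 368 CPM in empty-vector replicates 1 to 4 and 794, 747, 758 and 774 CPM in ADRA2A replicates 1 to 4. The groups lay far apart, and the spread within each was small beside the distance between them. The means were 379 ± 27.6 and 768 ± 20.2 CPM (SD, n = 4 per group), which is 2.03 times as much and a log2 change of 1.02 ± 0.04 (SE). In the empty-vector cells ANXA4 had the largest relative spread of the abundant members, 7.29%, and in the ADRA2A cells 2.62%. Of its 10 neighbouring tested genes 6 were above and 4 below 0, with a median log2 change of 0.08, and the highest of them, at 0.61, lay below ANXA4. AAK1 overlaps ANXA4 on the opposite strand without sharing exon bases and had a log2 change of -0.09.

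ANXA11, which binds S100A6 and the calcium sensor PDCD6 and links RNA granules to lysosomes, had a small difference. ANXA11 (ENSG00000122359.18; chromosome 10, 80150889 to 80205572, minus strand) had 304, 305, 299 and 298 CPM in the empty-vector libraries and 334, 338, 347 and 352 CPM in the ADRA2A libraries. In the empty-vector group it was the most even member, with a coefficient of variation of 1.16%, and the 2 groups were fully separate. Its means of 302 ± 3.50 and 343 ± 8.42 CPM (SD, n = 4 per group) gave a log2 change of 0.18 ± 0.03 (SE). That is within the middle range of all genes, whose 25th and 75th percentiles were -0.17 and 0.19.

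ANXA3, an annexin reported as an inhibitor of phospholipase A2 and as a product of several carcinomas, had the largest difference among the members that were lower. ANXA3 (ENSG00000138772.13; chromosome 4, 78551747 to 78610451, plus strand) had 289.7, 303, 296 and 296 CPM in empty-vector replicates 1 to 4 and 179, 180.3, 188 and 172 CPM in ADRA2A replicates 1 to 4. The libraries of each group lay close together and far from the other group. The means were 296 ± 5.58 and 180 ± 6.53 CPM (SD, n = 4 per group), or a log2 change of -0.72 ± 0.04 (SE), so that the empty-vector cells had 1.65 times as much. Of its 10 neighbouring tested genes 8 were lower by the adjusted p-value and 0 higher, with a median log2 change of -0.25. Among all genes tested 21.1% were lower and 21.6% higher. The next gene on the higher-coordinate side, BMP2K, had -0.65 (edgeR adjusted p = 1.97e-07), while FRAS1 on the other side had -0.15 (edgeR adjusted p = 0.0456). The part of these neighbours in the difference of ANXA3 was not tested.

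The ratio of ANXA4 to ANXA3 within a library depends on no scaling between libraries. The pair was taken for its opposite differences, so the separation of the ratio follows from that choice and is given as a description. ANXA4 had 1.31, 1.37, 1.19 and 1.24 counts per count of ANXA3 in empty-vector replicates 1 to 4. The ADRA2A replicates had 4.44, 4.15, 4.04 and 4.50. The ratio was thus between 4 and 5 in every ADRA2A library and below 1.5 in every empty-vector library.

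ANXA10, an annexin of gastric epithelium and one of the genes by which classical pancreatic tumours are recognized, was lower in the ADRA2A cells. ANXA10 (ENSG00000109511.11; chromosome 4, 168092537 to 168187736, plus strand) had 149.9, 157, 159.8 and 149 CPM in the empty-vector libraries and 119, 134, 122 and 108 CPM in the ADRA2A libraries. The groups did not overlap, and the ADRA2A libraries were the more spread, with a coefficient of variation of 8.80% against 3.36%. The means were 154 ± 5.16 and 120.5 ± 10.6 CPM (SD, n = 4 per group), or a log2 change of -0.35 ± 0.05 (SE). Its 10 neighbouring tested genes were 6 above and 4 below 0, with a median of 0.06.

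ANXA1 and ANXA2 are the annexins with an N-terminal stretch that is phosphorylated by tyrosine kinases and binds S100 proteins, S100A11 for ANXA1 and S100A10 for ANXA2. ANXA1 (ENSG00000135046.14; chromosome 9, 73151865 to 73170393, plus strand) had 550.5, 592, 553 and 569 CPM in the empty-vector libraries and 459, 476, 484 and 448 CPM in the ADRA2A libraries. All 4 ADRA2A libraries lay below the empty-vector libraries, with means of 566 ± 19.1 and 467 ± 16.3 CPM (SD, n = 4 per group) and a log2 change of -0.28 ± 0.03 (SE). ANXA2 (ENSG00000182718.16; chromosome 15, 60347134 to 60402883, minus strand) had 3057, 3220, 3248 and 3209 CPM in the empty-vector libraries and 2931, 3012, 3016 and 2875 CPM in the ADRA2A libraries. The groups came close, since the lowest empty-vector library was 3057 and the highest ADRA2A library 3016 CPM. The means of 3183 ± 85.9 and 2959 ± 67.9 CPM (SD, n = 4 per group) gave a log2 change of -0.11 ± 0.03 (SE). Reads of ANXA2 and its processed pseudogene ANXA2P2 may not be fully separable, and the latter was listed at 10.5 ± 1.70 and 10.3 ± 1.11 CPM (SD, n = 4 per group).

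Regions upstream of the start sites are printed for the members with the largest differences other than ANXA13 and for ANXA1. They come from RefSeq on GRCh38.p14, 5′ to 3′ on the strand of the gene, cut to the bases that hold no exon of GENCODE release 44. Capitals mark matches on either strand to 6 short motifs. TGACG is the core of the cAMP response element, and TGACGTCA is the full element, which contains it. TGANTCA is the motif bound by AP-1, a dimer of Fos and Jun proteins. GATAAG is a motif of the factors named after it, several of which act in gut epithelium. GGGCGG is the box bound by Sp1 and its relatives in many promoters rich in CpG. TATAAA is the box that binds the core initiation factor before many tightly regulated genes. The regions are chr2:69741884-69741973 for ANXA4 (before the second of its 2 listed start sites), chr4:78551520-78551746 for ANXA3, chr4:168092287-168092536 for ANXA10 and chr9:73151615-73151864 for ANXA1, all on the plus strand. Those of ANXA4 and ANXA3 end short of the start sites, at 69742134 and 78551770, while those of ANXA10 and ANXA1 reach theirs.
ANXA4: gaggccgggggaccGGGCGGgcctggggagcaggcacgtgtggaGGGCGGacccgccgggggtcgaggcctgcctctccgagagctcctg
ANXA3: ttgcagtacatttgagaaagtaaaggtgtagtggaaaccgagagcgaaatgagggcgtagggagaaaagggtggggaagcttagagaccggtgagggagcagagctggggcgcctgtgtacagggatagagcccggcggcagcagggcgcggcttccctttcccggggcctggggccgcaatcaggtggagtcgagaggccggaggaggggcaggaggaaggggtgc
ANXA10: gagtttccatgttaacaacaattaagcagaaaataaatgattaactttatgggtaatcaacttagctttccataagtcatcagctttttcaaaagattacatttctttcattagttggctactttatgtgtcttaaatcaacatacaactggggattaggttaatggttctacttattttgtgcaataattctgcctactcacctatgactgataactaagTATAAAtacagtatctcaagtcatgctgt
ANXA1: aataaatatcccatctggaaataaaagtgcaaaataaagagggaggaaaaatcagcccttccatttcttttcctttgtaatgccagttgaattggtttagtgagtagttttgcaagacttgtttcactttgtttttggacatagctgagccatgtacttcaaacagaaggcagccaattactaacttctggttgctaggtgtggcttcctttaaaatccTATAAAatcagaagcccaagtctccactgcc

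The stretch before ANXA4 was 78.9% G and C with 9 CpG dinucleotides in 90 bases and held 2 GC boxes, and that before ANXA3 was 62.6% G and C with 13 CpG in 227 bases and none of the motifs. Those before ANXA10 and ANXA1 had 31.2% and 38.4% G and C, 0 CpG in 250 bases each, and 1 TATA box match. The 250 bases before the first listed start site of ANXA4, not printed, were 77.2% G and C with 36 CpG and 5 GC boxes. No window was listed for ANXA13. Over the 13 windows of 250 bases before a start site of the 9 other members, TGACG occurred in 1, in a window of ANXA11. Of the 35116 windows of all genes 21.2% held it. TGACGTCA occurred in 0 of the 13, against 1.6% of all windows. GGGCGG occurred in 7 against 42.6%, TATAAA in 4 against 10.7%, TGANTCA in 1 (ANXA2) against 6.6%, and GATAAG in 1 (ANXA4) against 5.6%. The GATAAG match lies before the second start site of ANXA4, outside the printed stretch. Both members whose windows held no CpG, ANXA10 and ANXA1, were among the lower ones, as were ANXA3 and ANXA5, whose windows were 64.0% and 78.8% G and C.

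ANXA5, which binds phosphatidylserine on dying cells and is the usual probe for it, lay at 356, 381, 380 and 357 CPM in the empty-vector libraries and at 306, 304, 310.5 and 282.5 CPM in the ADRA2A libraries. ANXA5 (ENSG00000164111.15; chromosome 4, 121667946 to 121696995, minus strand) thus did not overlap between the groups, with means of 368 ± 13.7 and 301 ± 12.4 CPM (SD, n = 4 per group) and a log2 change of -0.29 ± 0.04 (SE). Among genes that set how much phosphatidylserine a cell shows, 3 are given here, and none of these 3 passed the test. XKR8, a scramblase, had a log2 change of 0.20 (edgeR adjusted p = 0.165), XKR9 had 0.22 (edgeR adjusted p = 0.512) and ATP8A1 had 0.14 (edgeR adjusted p = 0.668).

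ANXA6, the member with a duplicated core, was the least abundant of the 9 other than ANXA13. ANXA6 (ENSG00000197043.14; chromosome 5, 151100706 to 151157815, minus strand) had 28.7, 26.3, 32.9 and 25.8 CPM in the empty-vector libraries and 20.7, 24.1, 24.2 and 24.1 CPM in the ADRA2A libraries. The lowest empty-vector library exceeded the highest ADRA2A library by less than 2 CPM. The means of 28.4 ± 3.27 and 23.3 ± 1.72 CPM (SD, n = 4 per group) gave a log2 change of -0.29 ± 0.08 (SE).

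ANXA7, also called synexin, which promotes the fusion of secretory membranes, was the member without a difference beyond its spread. ANXA7 (ENSG00000138279.16; chromosome 10, 73375101 to 73414076, minus strand) had 179, 182, 183 and 169 CPM in the empty-vector libraries and 176, 175, 183 and 166 CPM in the ADRA2A libraries. The means were 178 ± 6.25 and 175 ± 7.38 CPM (SD, n = 4 per group). The 95% confidence interval of its log2 change of -0.03 ran from -0.11 to 0.06.

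**Figure D3:**
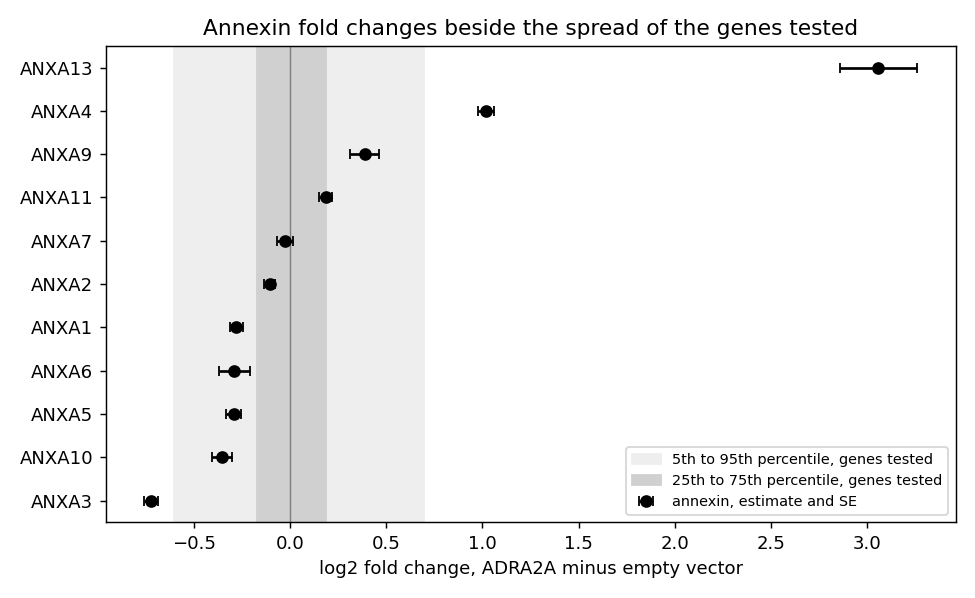
Log2 fold change of each annexin with its SE (x axis), with the 5th to 95th and 25th to 75th percentiles of the 14785 genes tested as shaded bands. ANXA13, ANXA4 and ANXA3 lie outside the outer band (-0.60 to 0.69), and ANXA11, ANXA7 and ANXA2 lie within the inner one.

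Per kilobase of the longest annotated transcript, the order of the family in the empty-vector cells was led by ANXA2 (902 ± 24.4 CPM per kb), ANXA1 (256 ± 8.66) and ANXA5 (225 ± 8.39), each with n = 4 and SD. ANXA10 (107 ± 3.58), ANXA3 (101 ± 1.90), ANXA4 (85.8 ± 6.25) and ANXA7 (73.0 ± 2.56 CPM per kb) followed closely, then ANXA11 (43.3 ± 0.503). At the low end stood ANXA6 (9.84 ± 1.13), ANXA9 (9.22 ± 0.447), ANXA8 (1.37 ± 0.215), ANXA13 (0.80 ± 0.38) and ANXA8L1 (0.184 ± 0.0895 CPM per kb). Neighbours in this order whose libraries overlapped were ANXA6 with ANXA9 and ANXA8 with ANXA13. In the ADRA2A cells ANXA4 had moved from rank 6 to rank 4, at 174 ± 4.56 CPM per kb, where its libraries overlapped with those of ANXA5 (184 ± 7.60). ANXA3 had moved from rank 5 to rank 7 (61.3 ± 2.23 CPM per kb), and ANXA13, at 6.59 ± 0.675 CPM per kb, from rank 12 to rank 11, next to ANXA6 with which it overlapped. With the length of the canonical transcript ANXA4 went from rank 5 to rank 3 and ANXA13 from rank 12 to rank 10, and ANXA2 and ANXA1 led in both groups. ANXA3 went only from rank 4 to rank 5 with that length. With the median transcript length ANXA4 was already at rank 3 in the empty-vector cells.

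**Figure D4:**
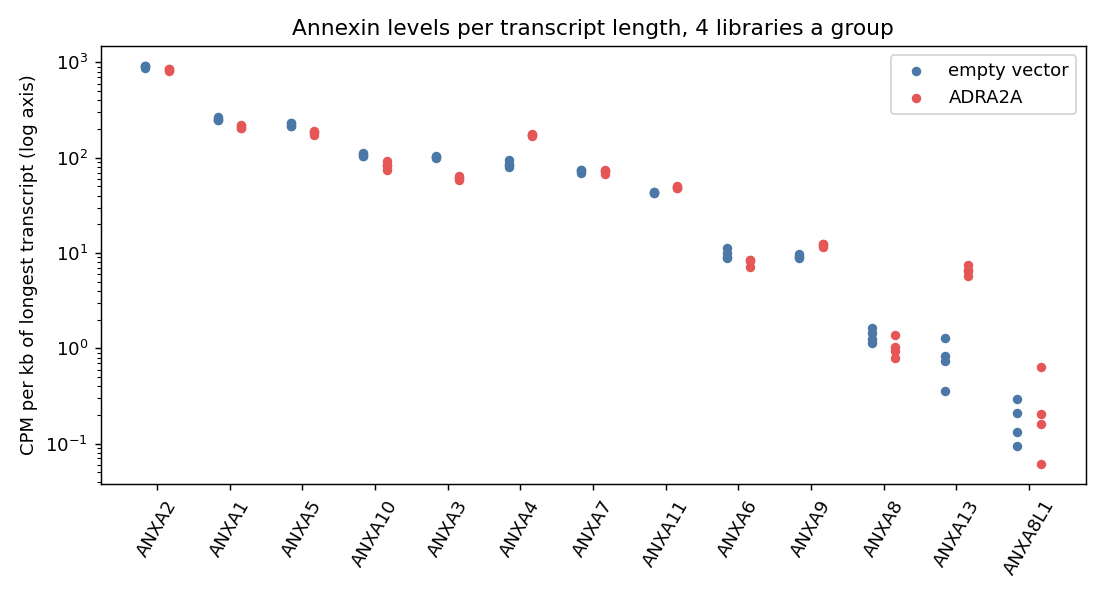
CPM per kilobase of the longest annotated transcript (y axis, log scale) of 13 annexin genes in the 4 libraries of each group. The family spans from ANXA2 at about 902 to ANXA8L1 at 0.184 CPM per kb in the empty-vector cells, and ANXA4 and ANXA13 are the members that stand visibly higher in the ADRA2A libraries.

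The family as a whole took a similar share of the transcriptome in both groups while its makeup shifted. The 10 members summed to 5297, 5586, 5503 and 5443 CPM in the empty-vector libraries and to 5330, 5404, 5445 and 5216 CPM in the ADRA2A libraries, which overlap. Without ANXA2 the sum was 2274 ± 62.0 CPM in the empty-vector and 2390 ± 36.5 CPM in the ADRA2A libraries (SD, n = 4 per group). These sums overlapped through empty-vector replicate 2 (2366 CPM) and ADRA2A replicate 4 (2341 CPM). Per kilobase of the longest annotated transcript, ANXA2 made up 50.02% ± 0.661 and 49.7% ± 0.224 of the 10 members (SD, n = 4 per group). ANXA4 went from 4.76% ± 0.323 to 10.3% ± 0.457, and ANXA3 from 5.60% ± 0.0523 to 3.63% ± 0.061 (SD, n = 4 per group). ANXA13 went from 0.0443% to 0.391% of the family. The shares moved with the length chosen. With the canonical transcript ANXA2 made up 62.8% in the empty-vector and 62.2% in the ADRA2A libraries. ANXA4 then went from 4.38% to 9.48%, ANXA3 from 6.34% to 4.10% and ANXA13 from 0.033% to 0.291%.

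**Figure D5:**
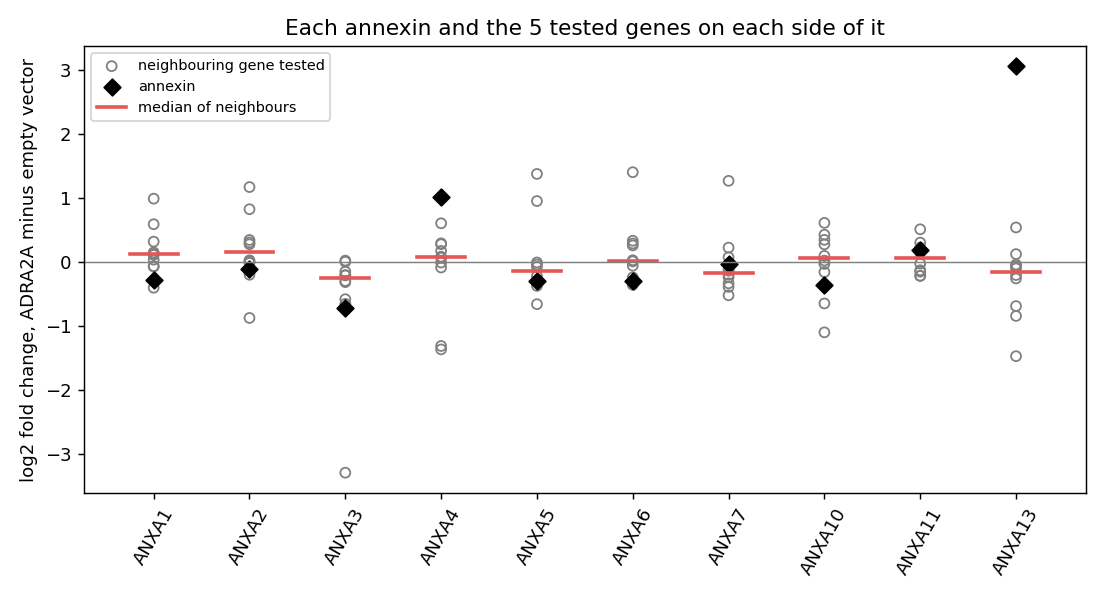
Log2 fold change (y axis) of each annexin (black diamond), of the 5 tested genes on each side of it (open circles) and the median of those 10 (red line). ANXA13 at 3.06 and ANXA4 at 1.02 lie above all of their neighbours, whereas ANXA3 at -0.72 lies among neighbours with a median of -0.25.

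The S100 proteins that pair with annexins did not all follow their annexin. S100A6, a partner of ANXA11 and ANXA2, fell from 987 ± 26.7 to 741 ± 56.0 CPM (SD, n = 4 per group), or a log2 change of -0.41 ± 0.04 (SE; edgeR adjusted p = 1.50e-07). S100A10, the light chain of the ANXA2 complex, had 503 ± 20.01 and 478 ± 31.3 CPM (SD, n = 4 per group), with a log2 change of -0.07 whose 95% confidence interval ran from -0.16 to 0.01 (edgeR adjusted p = 0.167), although without ADRA2A replicate 2 its adjusted p-value was 0.0278. S100A11, the partner of ANXA1, had 464 ± 20.3 and 496 ± 11.4 CPM (SD, n = 4 per group) and a log2 change of 0.09 ± 0.03 (SE; edgeR adjusted p = 0.034). AHNAK, a giant scaffold that the ANXA2 complex brings to the membrane, had a log2 change of -0.17 ± 0.06 (SE; edgeR adjusted p = 0.0179). Of the 7 genes of this list 5 were tested, 1 was higher and 2 lower, with a median of -0.17, and S100B and S100A12 had 0 counts. Among all genes tested 21.6% were higher and 21.1% lower. Leaving out empty-vector replicate 1, empty-vector replicate 4 or ADRA2A replicate 3 left 1 of the 3 calls, that of S100A6. The calls of S100A11 (adjusted p from 0.0786 to 0.142) and AHNAK (0.054 to 0.0786) were each lost without any 1 of empty-vector replicates 1 and 4 and ADRA2A replicates 2 and 3, as was that of S100A11 with upper quartile factors (0.0859) and that of AHNAK with DESeq2 (0.115).

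Surface plasminogen activation, in which ANXA2 with S100A10 docks tissue plasminogen activator, had 6 of 9 genes tested, 2 higher and 1 lower, with a median log2 change of -0.03. For all genes tested the shares were 21.6% higher and 21.1% lower. PLAT, tissue plasminogen activator itself, rose from 256 ± 27.0 to 379 ± 11.5 CPM (SD, n = 4 per group), or a log2 change of 0.56 ± 0.05 (SE; edgeR adjusted p = 4.52e-08). SERPINE2, an inhibitor of such proteases, rose from 62.7 ± 2.48 to 124 ± 7.04 CPM (SD, n = 4 per group; log2 change 0.98; edgeR adjusted p = 2.84e-12). PLGRKT, a plasminogen receptor, fell from 17.2 ± 1.67 to 10.9 ± 0.907 CPM (SD, n = 4 per group; log2 change -0.66; edgeR adjusted p = 1.10e-05). ENO1, a glycolytic enzyme that also binds plasminogen, had a log2 change of -0.08 (edgeR adjusted p = 0.147). ENO1 passed the threshold with no filter (edgeR adjusted p = 0.0376) and without ADRA2A replicate 2 (-0.119, edgeR adjusted p = 0.0304), and the list then had 2 lower. It also had 2 lower without empty-vector replicate 2, where ENO1 did not pass.

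Among genes of plasma membrane repair, a process in which several annexins act, 17 of 18 were tested, with 6 lower, 1 higher and a median log2 change of -0.06. Over all genes tested 42.7% were called in either direction, 21.1% lower and 21.6% higher, so nothing is read from this count. CAV1, the coat protein of caveolae, fell from 807 ± 24.3 to 432 ± 23.9 CPM (SD, n = 4 per group), or a log2 change of -0.90 ± 0.04 (SE; edgeR adjusted p = 3.41e-13). The ferlins MYOF and DYSF fell by 0.28 and 0.44 on the log2 scale (edgeR adjusted p = 2.12e-07 and 0.000169), and the calpain gene CAPN2 fell by 0.21 (edgeR adjusted p = 1.06e-05). The single call upward, CHMP2A, which was named after its value was seen, had a log2 change of 0.12 (edgeR adjusted p = 0.0386). The list held 0 higher genes with DESeq2, with upper quartile factors (8 lower), with no filter, with the replicate block, and without empty-vector replicate 1 or 4 or ADRA2A replicate 1 or 3.

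Other lists that share ligands, receptors or lipids with the annexins moved in part. The formyl peptide receptors, through which extracellular ANXA1 acts, had FPR1 at 0 to 11 counts per library and FPR2 and FPR3 at 0 or 1, and none was tested. The list of arachidonic acid enzymes includes phospholipase A2, which annexins were described as inhibiting. Here 6 of 10 genes were tested, 3 lower and 1 higher, with a median log2 change of -0.60. Over all genes tested the shares were 21.1% lower and 21.6% higher. With a mean of at least 50 counts asked for, the list had 2 lower and 1 higher. PTGS2, cyclooxygenase 2, fell from 23.1 ± 1.22 to 8.5 ± 1.02 CPM (SD, n = 4 per group), or a log2 change of -1.44 ± 0.09 (SE; edgeR adjusted p = 1.32e-10). PLA2G4A, cytosolic phospholipase A2, fell from 8.25 ± 0.787 to 3.81 ± 0.709 CPM (SD, n = 4 per group; log2 change -1.12; edgeR adjusted p = 3.77e-06), and PLA2G4D fell by 1.19 on the log2 scale at about 1 CPM (edgeR adjusted p = 0.00743). PLA2G4D passed the filter on low counts through the empty-vector libraries (15 to 30 counts, against 5 to 14 in the ADRA2A libraries), so nothing is read from its call. ALOX5, the lipoxygenase that begins leukotriene synthesis, rose by a log2 change of 0.53 (edgeR adjusted p = 0.00421).

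The copines, another family of calcium-dependent phospholipid-binding proteins, had 6 of 9 genes tested, 1 higher and 1 lower, with a median log2 change of -0.02. For all genes tested the shares were 21.6% and 21.1%. CPNE1 fell from 152 ± 5.54 to 91.2 ± 4.54 CPM (SD, n = 4 per group; log2 change -0.74; edgeR adjusted p = 5.11e-11), and CPNE8 rose by 0.30 (edgeR adjusted p = 0.000268). CPNE7 had a log2 change of 0.22 (edgeR adjusted p = 0.0537), and it passed the threshold without empty-vector replicate 1 (0.257, edgeR adjusted p = 0.0363) or ADRA2A replicate 1 (0.267, edgeR adjusted p = 0.0253). CPNE5, at about 1 CPM, had -0.40 (edgeR adjusted p = 0.397), which was -0.061 without empty-vector replicate 2.

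Since ANXA13 and ANXA10 are known from gut epithelium, genes of intestinal and gastric epithelium were listed beside them. Of 22 intestinal genes 10 were tested, of which 8 were higher and 0 lower, with a median log2 change of 0.98. Among the 8, LGALS4, named for its low counts, passed the filter on low counts only through the ADRA2A libraries. It had 0 to 7 counts in the empty-vector and 12 to 17 counts in the ADRA2A libraries, so nothing is read from its call. With a mean of at least 50 counts asked for, the list had 6 higher and 0 lower. MUC13, a membrane mucin, rose from 1.36 ± 0.261 to 8.25 ± 0.959 CPM (SD, n = 4 per group), or a log2 change of 2.59 ± 0.17 (SE; edgeR adjusted p = 3.68e-10). CDH17, an intestinal cadherin, rose from 1.20 ± 0.221 to 4.08 ± 0.255 CPM (SD, n = 4 per group; log2 change 1.76; edgeR adjusted p = 1.29e-06). VIL1, the actin bundler of microvilli, rose by a log2 change of 1.10 (edgeR adjusted p = 5.04e-09), and the tetraspanin gene TSPAN8 by 0.73 (edgeR adjusted p = 2.38e-07). The 12 other intestinal genes were too low to be tested, 4 of them with 0 counts in all 8 libraries. Of 14 gastric genes 7 were tested, with 3 higher and 2 lower and a median of 0.12. Beside these counts stand the same 21.6% and 21.1% of all genes tested. SULT1C2, a sulfotransferase, rose by a log2 change of 1.88 (edgeR adjusted p = 2.56e-08) and MUC5AC, the gastric secreted mucin, by 0.54 (edgeR adjusted p = 0.00191), although the libraries of MUC5AC overlapped between the groups. Without ADRA2A replicate 4, which had 253 CPM of MUC5AC where the other ADRA2A libraries had 133 to 190 CPM, its log2 change was 0.339, still past the threshold, and the gastric list had 2 higher. VSIG1, a gastric junction protein, fell by 0.69 (edgeR adjusted p = 0.000997), and CAPN8, a gastric calpain, by 1.58 at under 1 CPM (edgeR adjusted p = 0.0034). CAPN8 passed the filter on low counts only through the empty-vector libraries (10 to 16 counts, against 3 to 6 in the ADRA2A libraries), so nothing is read from its call. LYZ and CD68, which rose with these groups, are counted above among leukocyte markers, and LYZ is also made by gastric and intestinal epithelium.

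The annexin loci outside the selected set were of low abundance, and 4 of the 7 were tested. ANXA9, an annexin whose core lacks the usual calcium sites, had 238, 224, 249 and 208 counts in the empty-vector libraries and 277, 290, 311 and 297 counts in the ADRA2A libraries, or 14.3 ± 0.693 and 18.7 ± 0.635 CPM (SD, n = 4 per group). It rose by a log2 change of 0.39 ± 0.08 (SE; edgeR adjusted p = 0.00036). ANXA8 had 2.98 ± 0.468 and 2.25 ± 0.534 CPM (SD, n = 4 per group), or a log2 change of -0.42 with a 95% confidence interval from -0.87 to 0.04 (edgeR adjusted p = 0.136). ANXA8L1 is a near-identical copy of ANXA8, so that the division of reads between them is uncertain, and the sum of both was 3.37 ± 0.584 and 2.83 ± 0.67 CPM (SD, n = 4 per group), with overlapping groups. ANXA2R, named as a receptor of ANXA2, had a log2 change of 0.21 (edgeR adjusted p = 0.399), and ANXA2P2 had -0.03 (edgeR adjusted p = 0.854). ANXA2P3 had 0 counts and ANXA2P1 at most 2 in any library.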

How the data were processed

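RNA was measured by bulk sequencing in 4 empty-vector and 4 ADRA2A samples of CFPAC-1. The authors deposited 1 table of RSEM estimated counts per gene, not scaled between samples. The submitters' processing notes name cutadapt, STAR, RSEM, DESeq2 and hg38; versions, annotation release and use of strand are not given in the sources used here. Columns were matched to samples by the name in their titles, leaving 0 unmatched.

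Estimated counts were rounded and filtered with edgeR's filterByExpr (14785 of 58870 genes kept). They were scaled by TMM and tested with edgeR 4.0.16's quasi-likelihood test (R 4.3.3), group as the only term, Benjamini-Hochberg over all genes, threshold 0.05. CPM are TMM-scaled, and log2 CPM used a prior count of 2. The SE is the absolute log2 fold change divided by the square root of F. Positions, neighbours and lengths came from GENCODE release 44 on GRCh38 (99.4% of genes matched). Scripts were tested on simulated data.

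Members and lists were chosen with earlier results of these data known. Named genes were the members, other annexin loci, ADRA2A, the nearest tested gene on each side of ANXA13, the 5 genes nearest to ANXA13 in profile, S100A10, S100A11, S100A6 and up to 4 genes of smallest p-value in each list; 1 result under this rule is not reported here. Alternatives were DESeq2 1.42.0, RLE and upper quartile factors, limma 3.58.1 voom, no filter, a mean of at least 50 counts, a replicate block, and each library left out in turn. Totals were 14427040 to 17528910 counts, so genes near 1 CPM rest on few reads.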

Additional observations from a re-analysis of the deposited data

Results flagged for a closer look

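In 107 groups of 4 libraries examined, 1 library stood apart from the other 3 by Dixon's criterion in 2, and chance flags about 1 group in 20. ANXA6 in the ADRA2A group had 20.7 CPM in replicate 1, where the other replicates lay at 24.1 to 24.2 CPM. VIL1 in the ADRA2A group had 26.02 CPM in replicate 1, where the other replicates lay at 21.8 to 22.4 CPM.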

How the results depend on the processing

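Of 150 alternative fold changes of the 10 members, 149 kept their direction and side of the threshold. The exception was ANXA7, at -0.05 to 0.001 with a library left out (0.001 without ADRA2A replicate 4). Over all alternatives ANXA13 lay between 2.80 and 3.36, ANXA4 between 0.98 and 1.07, and ANXA3 between -0.74 and -0.70. The number of members called was 9 in every fit, and 2 when a difference of 1 on the log2 scale was also asked for. Of 135 alternative counts for the context lists 132 stayed within 1.5 times: the S100 partners had 3 calls, and 1 to 3 when a library was left out (1 without empty-vector replicate 1 or 4 or ADRA2A replicate 3; the cause was not tested). Genes that turned direction without having passed the threshold were ANXA2P2 (-0.105 to 0.074 with a library left out, above 0 without empty-vector replicate 3 or ADRA2A replicate 4) and ATP8A1 (-0.026 to 0.267, below 0 without ADRA2A replicate 1); the cause was not tested. The number of genes called over all genes tested was 6314, 5823 with DESeq2 and 6400 with the replicate block, and 46.4% of calls were higher with upper quartile factors against 50.6%. Same-numbered replicates did not deviate together (r from -0.042 to 0.070), so the numbers were not taken as pairs. Levels per length moved with the transcript chosen, and with the median transcript ANXA11 ranked 4 instead of 8; canonical lengths were added after seeing the data. ANXA13 had 12 to 37 counts in the empty-vector libraries, which limits its fold change more than that of the abundant members.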
